A study of Homo sapiens with 24 samples.

Results

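The genes described here are the polo-like kinases PLK1, PLK2, PLK3 and PLK4 with 6 partners in centriole duplication and centrosome separation, STIL, SASS6, CENPJ, CEP152, CCP110 and NEK2. They are 10 of the 25992 gene names on the array and were found by name, giving 13 probes, of which PLK1, STIL and NEK2 have 2 each. The set was put together around PLK4, which was chosen from its measured difference between the cell lines at 24 h, so its 24 h values are given as a description with no test, and 9 members are counted at that time.

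RNA was measured on 24 one-colour Agilent arrays from A549 and H1975 cells, both established human lung adenocarcinoma lines. The 8 groups of 3 arrays were A549 with PBS for 6 h, A549 with Pirfenidone for 6 h, A549 with PBS for 24 h, A549 with Pirfenidone for 24 h, and the same 4 groups of H1975. Pirfenidone, an approved drug against lung fibrosis, was given at 0.75 mg/ml by the sample labels (a legend of the study names a higher dose for A549 transcriptome data), and PBS, its solvent, at the matching volume. The labels do not say whether the 3 arrays of a group came from separate cultures, and the study describes its plotted means as coming from independent experiments unless stated otherwise. The p-values rest on the spread between arrays within groups, shared over the 8 groups, which may be technical.

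Centrioles are copied in each cell cycle: PLK4, held at the parent centriole by CEP152, phosphorylates STIL, and STIL with SASS6 builds the cartwheel on which a new centriole grows. CENPJ sets its length together with CCP110, which caps the growing end. PLK1 then drives centrosome maturation and mitosis and NEK2 loosens the linker between the centrosomes, whereas PLK2 and PLK3 are better known as genes of the early response to growth factors and stress. Transcripts of PLK1, PLK4 and NEK2 are known to be most abundant in cycling cells, and those of PLK1 and NEK2 in G2 and mitosis.

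The probes behind the results with the largest changes are shown because each reads only the transcript that contains its 60 bases. They are given 5′ to 3′ in lower case, with the place on hg19 that the array's own annotation gives. The first PLK1 probe is spread over 243 bases of the genome, so it crosses a splice junction, and the others lie within 60 bases. On these coordinates no exon or UTR was assigned, since no hg19 gene annotation was used here.
PLK1, brighter probe (chr16:23700970-23701212, + strand): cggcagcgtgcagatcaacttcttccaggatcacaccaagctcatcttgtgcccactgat
PLK1, dimmer probe (chr16:23692251-23692310, + strand): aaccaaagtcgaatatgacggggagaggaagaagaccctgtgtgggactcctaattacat
NEK2, brighter probe (chr1:211836861-211836920, - strand): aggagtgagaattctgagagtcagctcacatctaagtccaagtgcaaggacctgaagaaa
NEK2, dimmer probe (chr1:211842588-211842647, - strand): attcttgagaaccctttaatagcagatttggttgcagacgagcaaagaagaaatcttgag
PLK4 (chr4:128816182-128816241, + strand): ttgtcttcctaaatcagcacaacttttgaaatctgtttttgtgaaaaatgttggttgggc

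Levels are log2 signals relative to the 75th percentile of the same array, so a level of 0 is as bright as that percentile, and a gene is given by its brightest probe unless another is named. Every member was well above background on all 24 arrays except SASS6, which had 23 values because its spot on 1 H1975 Pirfenidone 6 h array was marked as an outlier and left out. All 13 probes were among the 23827 that passed the filter on dim probes. A gene was called where limma's adjusted p, over all tested probes, was at most 0.05 and the change at least 2-fold.

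Between 62.7% and 69.5% of probes were well above background on each array and 0 spots were saturated. In each line all 5 epithelial markers cleared background on 12 of 12 arrays. Of 4 lung adenocarcinoma markers 2 did so in A549 (NAPSA and SFTPC) and 3 in H1975, with NKX2-1, the lung lineage factor, on 0 of 12 A549 and 12 of 12 H1975 arrays. Markers of other cell types also cleared it on 12 of 12 arrays of a line: in A549 2 of 5 fibroblast, 3 of 4 leukocyte and 1 of 3 endothelial markers, and in H1975 3 of 5, 2 of 4 and 3 of 3, while DCN, a fibroblast marker, did so on 0 of 12 in both. Dates in the file names give 4 runs, numbered here by date, of which 3 hold A549 and 3 hold H1975 arrays, each with both treatments and both times. The place on the slide was 1 for Pirfenidone at 6 h, 2 for PBS at 6 h, 3 for Pirfenidone at 24 h and 4 for PBS at 24 h on all arrays. Effects of place therefore cannot be told apart from those of treatment and time. In run 3 the H1975 PBS 24 h array was on a different slide from the other H1975 arrays. The 2 arrays of A549 replicate 3 at 24 h, both of run 1, stood apart: the mean level of 12 G2/M markers was 0.78 with PBS and 2.29 with Pirfenidone there, against 2.24 and 2.28 with PBS and 1.99 and 1.36 with Pirfenidone in the other runs. The labels were kept, and whether these 2 arrays carry each other's label was not tested, so every direction at 24 h in A549 rests on them as labelled. Calls that compare the groups of these 2 arrays are given with and without them, but counts of members at an unadjusted p only with them. All groups share 1 estimate of the spread, so p-values of the other comparisons also depend on these 2 arrays and are given only with them. Over all tested probes, 451 were called for Pirfenidone in H1975 at 24 h with the 2 arrays in the fit and 567 without.

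**Figure D1:**
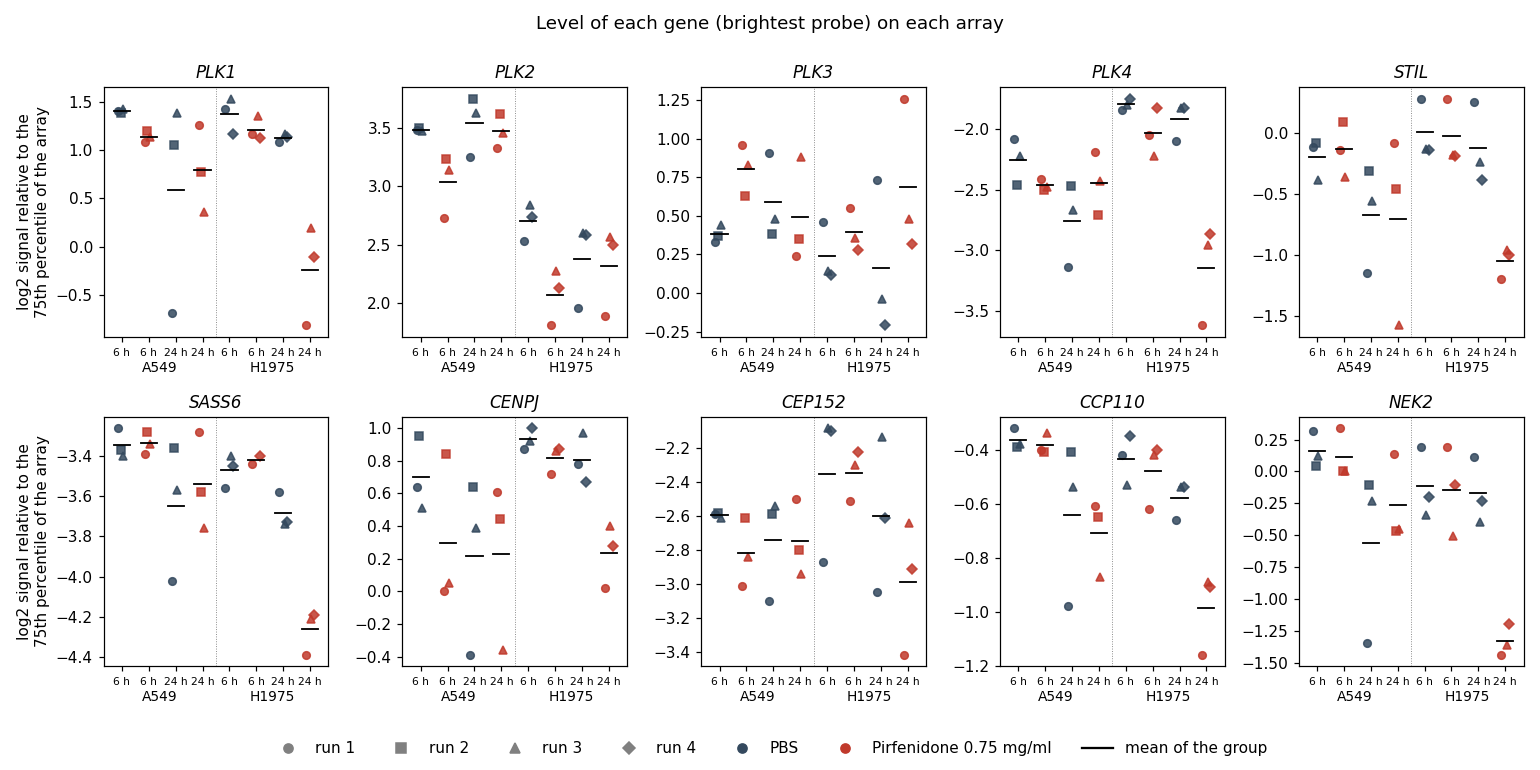
Log2 level of the brightest probe of each gene, as log2 signal over the 75th percentile, on each array of the 8 groups (symbols: run; dark: PBS; red: Pirfenidone; horizontal bar: group mean, of 2 values for SASS6 in H1975 with Pirfenidone at 6 h and of 3 elsewhere). The mean of H1975 with Pirfenidone at 24 h is the lowest of the 8 for PLK1, PLK4, STIL, SASS6, CEP152, CCP110 and NEK2, and the A549 PBS 24 h array of run 1 lies at -0.68 for PLK1 and -1.35 for NEK2.

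In H1975 cells at 24 h, PLK1 and NEK2 were lower with Pirfenidone, by 2.57-fold and 2.23-fold, and these were 2 of the 9 members counted. Over all tested probes 1.89% were called in this comparison, 239 of the 23827 lower and 212 higher. Without the limit on the fold change SASS6 also passed, making 3 of 9 against 6.26% of all probes. At an unadjusted p under 0.05 there were 7 of 9, against 22% of all probes. All 3 Pirfenidone arrays lay below all 3 PBS arrays for 6 of 9 members (PLK1, STIL, SASS6, CENPJ, CCP110 and NEK2), against 15.6% of all probes. The median change of the 9 was -0.58 on the log2 scale, against 0.02 over all tested probes. Since each array holds the RNA of a whole culture, fewer cells that express a gene and less of its RNA per cell cannot be told apart.

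PLK1, the kinase of mitotic entry, had levels in H1975 at 24 h of 1.17, 1.13 and 1.08 with PBS and of 0.20, -0.10 and -0.81 with Pirfenidone, in runs 3, 4 and 1. The PBS arrays were almost level with each other, and every Pirfenidone array lay below them, lowest in run 1. The log2 change was -1.36 (SE 0.36, limma adjusted p = 0.0318), and within runs 3, 4 and 1 it was -0.97, -1.23 and -1.89. The dimmer PLK1 probe, which reads a stretch upstream of the first on the same strand, gave -1.42 (SE 0.39, limma adjusted p = 0.036). PLK1 missed the threshold with normexp background correction (limma adjusted p = 0.0711), with the slide as a block (0.0515) and with only the 6 arrays compared in the fit (0.0583). It also missed the threshold without any of 5 of those 6 arrays in turn (limma adjusted p from 0.0591 to 0.189), namely each of the PBS arrays and Pirfenidone replicates 2 and 3, while its change stayed between -1.08 and -1.43.

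NEK2, the kinase that frees the centrosomes from each other, had levels of -0.40, -0.23 and 0.11 with PBS and of -1.36, -1.20 and -1.44 with Pirfenidone, in the same run order. The lowest PBS array was above the highest Pirfenidone array. The log2 change was -1.16 (SE 0.27, limma adjusted p = 0.0172), and its dimmer probe gave -1.22 (SE 0.30, limma adjusted p = 0.0228). Within runs 3, 4 and 1 NEK2 differed by -0.96, -0.97 and -1.55. The call was lost without PBS replicate 3 (limma adjusted p = 0.0725) and without Pirfenidone replicate 3 (0.0935), the 2 arrays of run 1.

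PLK4, which starts centriole duplication, was the gene chosen on these 24 h values. In H1975 it stood at -1.83, -1.83 and -2.10 with PBS and at -2.96, -2.87 and -3.62 with Pirfenidone, in runs 3, 4 and 1, a log2 change of -1.23 (SE 0.19). Every Pirfenidone array was lower than every PBS array. In A549 it stood at -2.47, -2.67 and -3.14 with PBS and at -2.71, -2.43 and -2.19 with Pirfenidone, in runs 2, 3 and 1. These groups overlapped, and the PBS array of run 1 was the lowest of all 6. The A549 change was 0.31 (SE 0.19), and 0.00 (SE 0.21) without the 2 arrays that stood apart. The difference between the lines was then -1.23 (SE 0.27) in place of -1.54 (SE 0.27).

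Ordered by group mean, PLK4 was highest in H1975 with PBS at 6 h (-1.79 ± 0.05, SD, n = 3) and at 24 h (-1.92 ± 0.16, SD, n = 3), followed by H1975 with Pirfenidone at 6 h (-2.03 ± 0.20, SD, n = 3). The A549 groups came next, with PBS at 6 h (-2.25 ± 0.19, SD, n = 3), Pirfenidone at 24 h (-2.44 ± 0.26, SD, n = 3), Pirfenidone at 6 h (-2.47 ± 0.05, SD, n = 3) and PBS at 24 h (-2.76 ± 0.35, SD, n = 3). H1975 with Pirfenidone at 24 h was lowest (-3.15 ± 0.41, SD, n = 3). Neighbours in this order differed by no more than the larger of their SDs, except H1975 with Pirfenidone at 6 h and A549 with PBS at 6 h. At 6 h, which did not enter the choice, PLK4 changed by -0.24 (SE 0.19, limma adjusted p = 0.783) in H1975 and by -0.21 (SE 0.19, limma adjusted p = 1) in A549 with Pirfenidone.

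Neither cartwheel gene reached a 2-fold change in H1975 at 24 h. STIL had levels of -0.24, -0.39 and 0.25 with PBS and of -0.96, -1.0 and -1.20 with Pirfenidone, in runs 3, 4 and 1, with no overlap. Its 2 probes differed in the test: the brighter gave -0.93 (SE 0.29, limma adjusted p = 0.0654) and the dimmer -0.96 (SE 0.23, limma adjusted p = 0.0217), both short of 2-fold. SASS6 had levels of -3.74, -3.73 and -3.58 with PBS and of -4.21, -4.19 and -4.39 with Pirfenidone. These groups did not overlap either, and the change of -0.58 (SE 0.14, limma adjusted p = 0.0238) passed the p but was 1.49-fold.

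None of the scaffold and length genes CENPJ, CCP110 and CEP152 was called there. CENPJ changed by -0.58 (SE 0.26, limma adjusted p = 0.205), from levels of 0.67 to 0.97 with PBS to levels of 0.02 to 0.40 with Pirfenidone. CCP110, the cap protein, changed by -0.41 (SE 0.13, limma adjusted p = 0.0612), from between -0.66 and -0.54 to between -1.16 and -0.89. The groups did not overlap for CENPJ or CCP110. CEP152 changed by -0.39 (SE 0.25, limma adjusted p = 0.379) with overlapping groups, in which the arrays of run 1 were the lowest of each, at -3.05 with PBS and -3.42 with Pirfenidone.

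Of the other polo kinases, neither PLK2 nor PLK3 was called at 24 h. PLK2 changed by -0.06 (SE 0.20, limma adjusted p = 0.924) in H1975, with within-run differences of -0.03, -0.08 and -0.07 in runs 3, 4 and 1. PLK3 was the only member with a positive change there, 0.53 (SE 0.25, limma adjusted p = 0.218). Its levels with PBS were -0.04, -0.21 and 0.73 and with Pirfenidone 0.48, 0.32 and 1.26. The groups overlapped because both run 1 arrays were high, and within runs 3, 4 and 1 PLK3 differed by 0.52, 0.53 and 0.53.

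**Figure D2:**
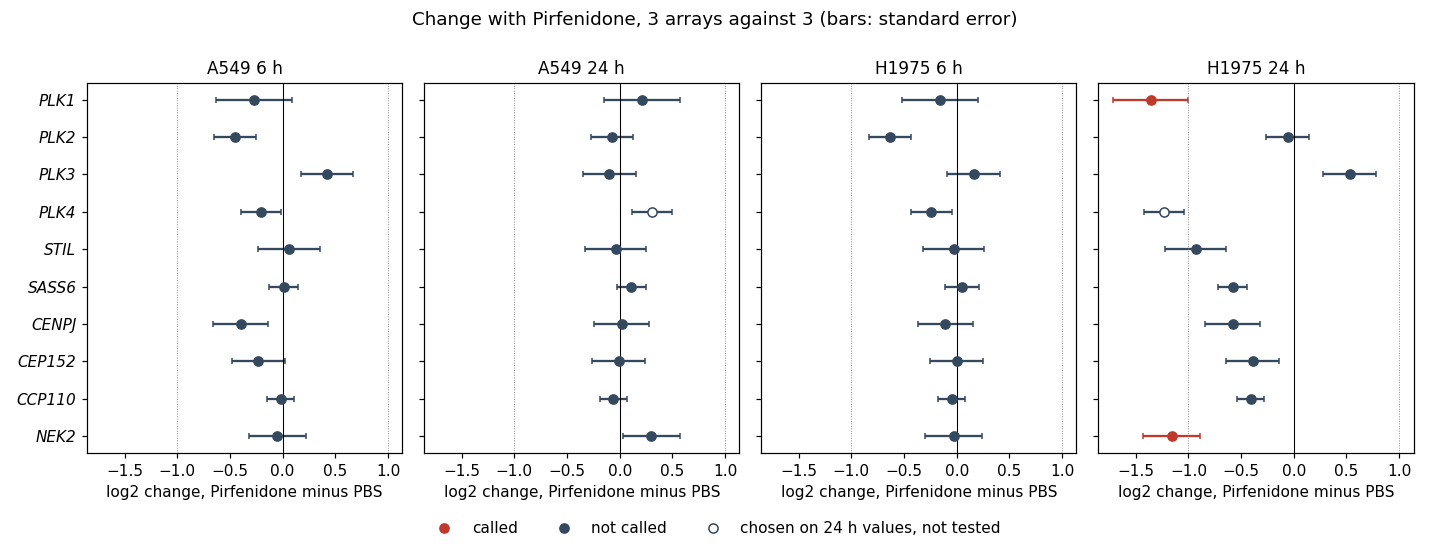
Log2 change with Pirfenidone (mean of 3 Pirfenidone arrays minus mean of 3 PBS arrays; SASS6 in H1975 at 6 h has 2 Pirfenidone arrays) of the brightest probe of each gene in the 4 comparisons, with standard errors from the fit over all 24 arrays; dotted lines mark a 2-fold change. PLK1 (-1.36) and NEK2 (-1.16) in H1975 at 24 h are the called genes, and the open circles are PLK4 at 24 h, which was not tested.

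In A549 at 24 h 0 of 9 members were called by limma and 0 had an unadjusted p under 0.05, against 0.0126% of all probes called and 0.953% at that p. PLK1 levels were 1.05, 1.38 and -0.68 with PBS and 0.77, 0.36 and 1.26 with Pirfenidone, in runs 2, 3 and 1. The PBS array of run 1 was the lowest and the Pirfenidone array of run 1 the second highest, so that the change of 0.21 (SE 0.36, limma adjusted p = 1) averaged -0.28, -1.03 and 1.94. NEK2 gave -0.36, -0.22 and 1.49 in the same runs. Across the 9 members without PLK4 the median difference was -0.21 in run 2 (9 of 9 lower), -0.32 in run 3 (8 of 9 lower) and 0.74 in run 1 (1 of 9 lower). In H1975 it was -0.51, -0.39 and -0.76 in runs 3, 4 and 1, with 8 of 9 lower in each. Without the 2 A549 arrays that stood apart, PLK1 changed by -0.65 (SE 0.23, limma adjusted p = 0.408), STIL by -0.59 (SE 0.30, limma adjusted p = 0.629) and NEK2 by -0.29 (SE 0.22, limma adjusted p = 0.813), and 0 of 9 were called.

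**Figure D3:**
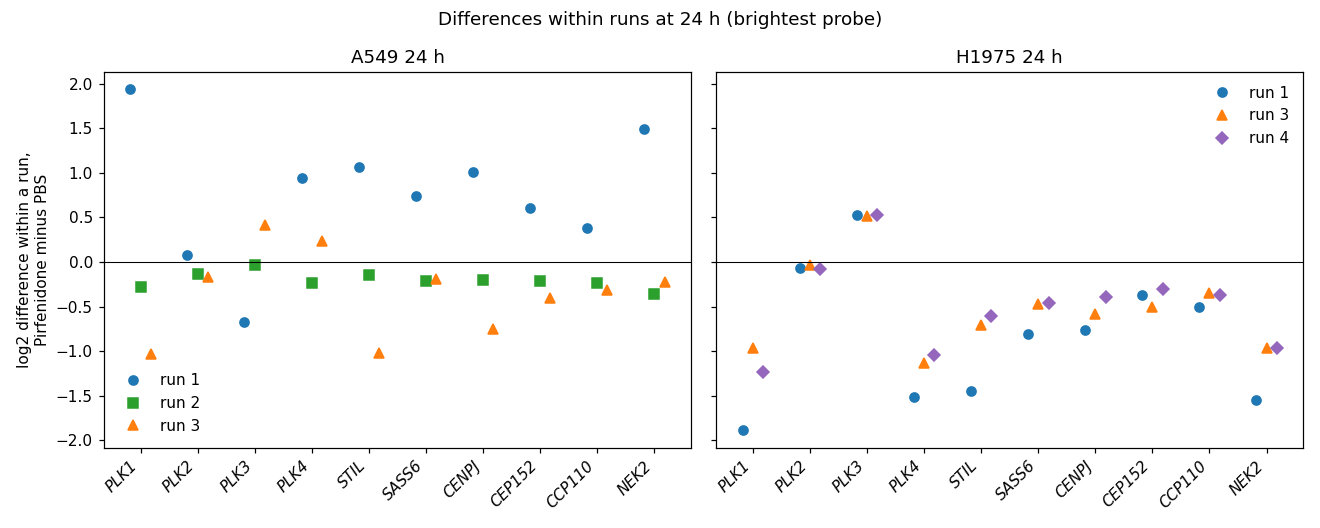
Log2 difference between the Pirfenidone and the PBS array of the same run at 24 h for each gene, A549 on the left and H1975 on the right. Of the 9 genes without PLK4, which was chosen on 24 h values, 1 lies below 0 in run 1 of A549 and 9 in run 2, while in H1975 8 lie below 0 in each run and PLK3 lies between 0.52 and 0.53.

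Whether the lines responded differently at 24 h was tested as the difference between their changes, H1975 minus A549. It was called for 0 of 9 members by limma, against 0.193% of all probes, and 4 of 9 had an unadjusted p under 0.05, against 12.2%. PLK1 differed by -1.57 (SE 0.51, limma adjusted p = 0.2), NEK2 by -1.46 (SE 0.38, limma adjusted p = 0.114), SASS6 by -0.69 (SE 0.20, limma adjusted p = 0.163) and STIL by -0.89 (SE 0.41, limma adjusted p = 0.394). Without the 2 A549 arrays these became -0.71 (limma adjusted p = 0.66), -0.87 (0.425), -0.38 (0.607) and -0.34 (0.985), and 0 of 9 were called. At 6 h the difference between the lines was called for 0 of 10 members by limma, against 0.0336% of all probes, with 0 at an unadjusted p under 0.05, against 2.63%.

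At 6 h PLK2 was the member with the largest change in both lines, and it was not called in either. In H1975 its levels were 2.84, 2.74 and 2.53 with PBS and 2.28, 2.13 and 1.81 with Pirfenidone, in runs 3, 4 and 1. In A549 they were 3.5, 3.47 and 3.48 with PBS and 3.23, 3.14 and 2.73 with Pirfenidone, in runs 2, 3 and 1. The groups did not overlap in either line. The log2 changes were -0.63 (SE 0.20, limma adjusted p = 0.168) and -0.45 (SE 0.20, limma adjusted p = 0.779). In H1975 at 6 h 0 of 10 members were called by limma and 1 had an unadjusted p under 0.05, against 0.491% and 11% of all probes, and in A549 at 6 h 0 of 10 and 1, against 0.176% and 6.01%. All Pirfenidone arrays lay below all PBS arrays for 2 of 10 members in H1975 (PLK2 and CENPJ), against 7.16% of probes, and for 2 of 10 in A549 (PLK1 and PLK2), against 8.24%. PLK3 changed by 0.42 (SE 0.25, limma adjusted p = 1) in A549, with levels of 0.37, 0.44 and 0.33 with PBS and 0.63, 0.83 and 0.96 with Pirfenidone, and by 0.16 (SE 0.25, limma adjusted p = 0.929) in H1975.

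The change at 24 h minus that at 6 h was called for 0 of 9 members by limma in both lines, against 0.00420% of all probes in H1975 and 0.0294% in A549, and had an unadjusted p under 0.05 for 4 of 9 in H1975 and 0 of 9 in A549, against 5.86% and 3.04%. In H1975 it was -1.20 for PLK1 (SE 0.51, limma adjusted p = 0.777), -1.13 for NEK2 (SE 0.38, limma adjusted p = 0.586) and 0.57 for PLK2 (SE 0.29, limma adjusted p = 0.895). Without the A549 arrays that stood apart the A549 count of called members was also 0.

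With PBS the lines differed in PLK2. At 24 h it stood at 3.75, 3.63 and 3.25 in A549, in runs 2, 3 and 1, and at 2.60, 2.58 and 1.96 in H1975, in runs 3, 4 and 1, so that every H1975 array was lower. The log2 difference, H1975 minus A549, was -1.16 (SE 0.20, limma adjusted p = 6.79e-05), or 2.23-fold, and in the runs both lines share, 1 and 3, it was -1.29 and -1.03. This was 1 of 9 members called, against 32.9% of all probes. Without H1975 PBS replicate 3 of 24 h the difference was -0.95, under the fold limit, and without the A549 arrays that stood apart it was -1.31 (limma adjusted p = 8.37e-05). At 6 h PLK2 differed by -0.78 (SE 0.20, limma adjusted p = 0.00289) and PLK4 by 0.46 (SE 0.19, limma adjusted p = 0.0484), both under 2-fold, so that 0 of 10 members were called by limma against 32.4% of all probes, and 2 of 10 had an unadjusted p under 0.05, against 62.6%. Between 24 h and 6 h with PBS, 0 of 9 members were called by limma in A549, against 0.109% of all probes, and 0 of 9 in H1975, against 0.315%; an unadjusted p under 0.05 was found for 4 and 0 of them, against 8.49% and 10.6%. The 4 in A549 were PLK1, SASS6, CCP110 and NEK2, with log2 changes of -0.82, -0.31, -0.28 and -0.72. Without the A549 arrays that stood apart these shrank to -0.18, -0.12, -0.11 and -0.33, and the A549 count of called members was also 0.

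Other centrosome genes were counted in lists named by role, to be read against the 1.89% of all probes called in H1975 at 24 h. Of 20 centriole assembly genes 1 was called in H1975 at 24 h, KIF24, a kinesin that works with CCP110 (-1.01, SE 0.27, limma adjusted p = 0.0345), and the median change was -0.28. Of 10 genes for the turnover of centriole proteins 1 was called, CCNF, the cyclin F that targets CCP110 for degradation (-1.23, SE 0.30, limma adjusted p = 0.0213), and the median was 0.05. Of 12 genes of the pericentriolar matrix and gamma-tubulin 0 were called by limma, with 5 at an unadjusted p under 0.05 and a median of -0.25. Of 7 linker genes, on which NEK2 acts, 0 were called, with 1 at an unadjusted p under 0.05 and a median of -0.10. At that p there were 9 of the 20 centriole assembly and 2 of the 10 turnover genes. The share of all probes at that p was 22%.

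Many genes that work with PLK1 in mitosis and many cell cycle markers were also lower. Of 17 PLK1 partners 10 were called lower in H1975 at 24 h, where 1.89% of all probes were called, with a median of -1.24, led by KIF20A, a kinesin of cytokinesis (-1.63), GTSE1, which is expressed in G2 and S phase (-1.60), and BUB1B, a spindle checkpoint kinase (-1.42). Of 12 G2/M markers 11 were called lower (median -1.22) and of 14 S phase markers 4 (median -0.98), among them RRM2 (-1.40), MCM5 (-1.17) and GINS2 (-1.12). The mean level of the G2/M markers lay between 2.31 and 2.34 on the PBS arrays and at 1.35, 1.37 and 0.68 on the Pirfenidone arrays of runs 3, 4 and 1. Its part in the changes of PLK1, NEK2 and PLK4 was not tested. Of 14 p53 targets 2 were called higher, GDF15, a stress cytokine (2.14), and BBC3, a gene of apoptosis (1.16). In A549 at 24 h 0 genes of any of these 8 lists were called by limma, with 0 at an unadjusted p under 0.05. There the runs opposed each other: the median difference of the G2/M markers was -0.24 and -0.90 in runs 2 and 3 (12 of 12 lower in each) and 1.51 in run 1 (0 of 12 lower), and that of the PLK1 partners -0.24, -0.56 and 1.32 (14, 16 and 1 of 17 lower). Without the arrays that stood apart 0 genes of the lists were again called, and 9 of 12 G2/M markers (median -0.61) and 7 of 17 PLK1 partners (median -0.37) had an unadjusted p under 0.05, against 8.49% of all probes. In the other lists it was 1 of 14 S phase markers (median -0.29), 1 of 14 p53 targets and 5 of 20 centriole assembly genes. For pericentriolar, turnover and linker genes it was 2 of 12, 2 of 10 and 0 of 7. That refit was chosen after the data were seen.

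**Figure D4:**
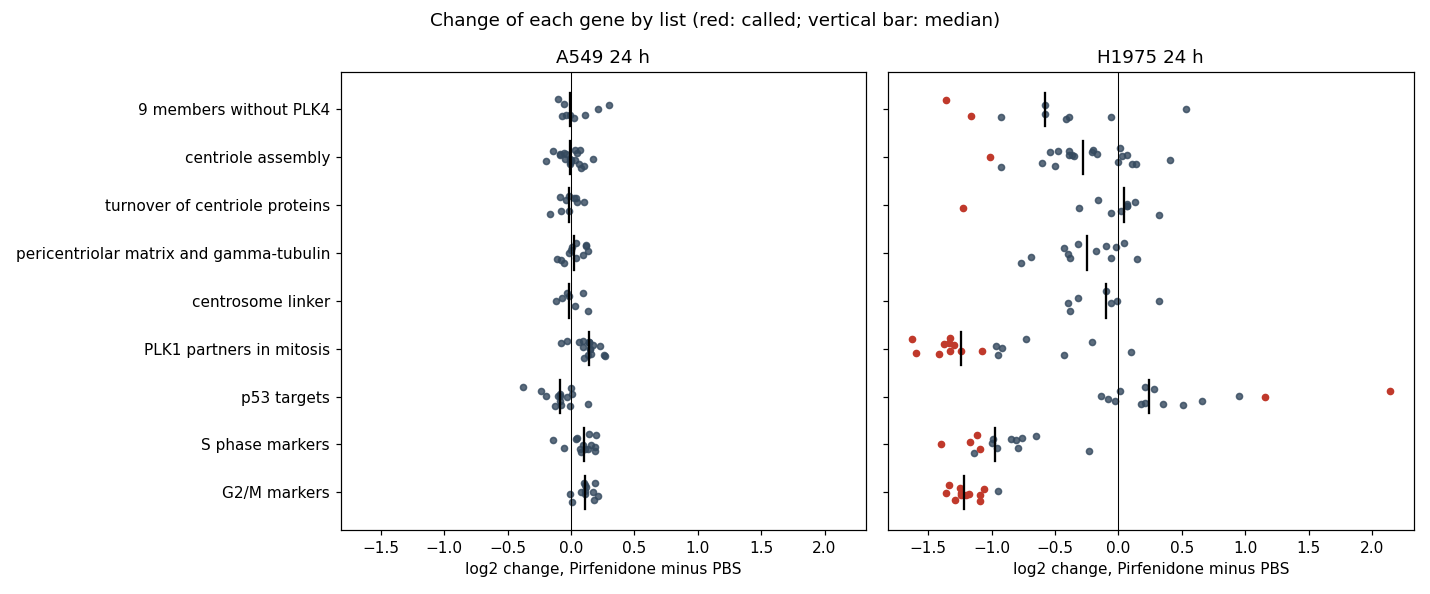
Log2 change with Pirfenidone at 24 h of each gene in 9 groups, the members without PLK4 and the 8 lists, in A549 and H1975; red points were called and the vertical bar is the median. In H1975 the PLK1 partners, S phase and G2/M markers have medians of -1.24, -0.98 and -1.22, and the 4 centrosome lists have medians between -0.28 and 0.05.

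Over the 24 arrays, after the mean of each line was subtracted, the genes whose levels ran most like PLK4 were TMPO, a protein of the nuclear envelope (Pearson r = 0.956), FBXO5, an inhibitor of the anaphase-promoting complex (0.953), ANLN, which acts in cytokinesis (0.952), PCNA, the sliding clamp of DNA replication (0.951), and ESCO2, a cohesin acetyltransferase (0.947). Among the members the correlation to PLK4 was 0.883 for SASS6 (23 arrays), 0.866 for PLK1, 0.851 for NEK2, 0.818 for CCP110, 0.69 for CEP152, 0.681 for STIL and 0.658 for CENPJ, and it was 0.255 for PLK2 and -0.647 for PLK3. Of all tested probes 99.5% had a lower r than SASS6, 92.6% a lower r than CENPJ, 74.2% a lower r than PLK2 and 7.35% a lower r than PLK3. These arrays share treatments and runs, include the 2 A549 arrays that stood apart, and PLK4 was chosen on part of them.

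Promoters are shown for the called kinases, for PLK4 and for STIL because genes of the G2/M programme are known for CCAAT boxes and CHR elements and those of S phase for E2F sites near the start. RefSeq promoter sequences (GRCh38.p14, 250 bases before to 50 after the start) matched all 10 members, with CENPJ listed as CPAP and 3 start sites for PLK4. The letters searched on both strands were TTTGAA for CHR, CCAAT for the box of that name, and TTTCCCGC, TTTCGCGC, TTTGCCGC and TTTGGCGC for E2F, and no 2 matches overlapped in the members' windows. Of all 35116 promoters 15.2% hold a CHR match, 34.6% a CCAAT and 3.31% an E2F match. A match is only a match of letters.
PLK1, 100 bases before the start (chr16:23678789-23678888, + strand): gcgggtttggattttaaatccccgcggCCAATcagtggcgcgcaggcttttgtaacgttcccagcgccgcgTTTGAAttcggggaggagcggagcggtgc
NEK2, 100 bases before the start (chr1:211675622-211675721, - strand): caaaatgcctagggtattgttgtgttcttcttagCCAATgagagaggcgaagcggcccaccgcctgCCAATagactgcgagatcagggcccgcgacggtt
PLK4, 100 bases before its start site 3 (chr4:127881531-127881630, + strand): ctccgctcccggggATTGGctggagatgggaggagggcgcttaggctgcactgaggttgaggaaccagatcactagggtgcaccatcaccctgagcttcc
STIL, 180 bases before the start (chr1:47314148-47314327, - strand): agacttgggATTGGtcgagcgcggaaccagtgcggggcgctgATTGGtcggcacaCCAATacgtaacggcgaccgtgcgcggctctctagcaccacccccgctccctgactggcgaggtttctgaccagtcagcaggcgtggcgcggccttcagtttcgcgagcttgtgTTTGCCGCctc
Capitals mark the matches, with ATTGG as CCAAT read on the other strand. PLK1 has a CCAAT at -73 and a CHR match at -29, NEK2 has CCAAT at -66 and -34, and STIL has 3 CCAAT matches and an E2F match at -11. The STIL CCAAT matches lie at -171, -138 and -125, outside the 100 bases shown for the other genes. PLK4 has 1 CCAAT match before its start site 3, 1 CHR match after its start site 1 and no match at its start site 2. The site shown is thus the only PLK4 site with a match before the start. Of the other members CEP152 holds a CHR and 2 CCAAT matches and SASS6 an E2F match at 16 bases after the start. PLK2, PLK3, CENPJ and CCP110 hold none of these letters in this window, so that 6 of the 10 members hold at least 1 match. The share of all promoters with at least 1 match of any kind was not counted, so this count has no background. By motif, 3 members hold a CHR, 5 a CCAAT and 2 an E2F match, against 15.2%, 34.6% and 3.31% of all promoters. PLK4 had 3 windows in which to match.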

How the data were processed

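The authors deposited Agilent Feature Extraction scanner files, in which the processed signal is a background-subtracted intensity, and a table of processed log2 values, which the authors deposited without stating scale or centring and whose column medians lay between -0.162 and 0.155; it served as an alternative. Outlier spots and controls were left out, log2 of the processed signal was set against the 75th percentile of each array, and spots of a probe were averaged. A probe was tested where all 3 arrays of some group had it well above background (23827 of 34127). One limma fit (3.58.1, R 4.3.3) held 8 group means and 16 residual degrees of freedom, with Benjamini-Hochberg adjustment over all tested probes; the authors' Westfall-Young adjustment cannot pass with 3 against 3. Depth does not apply to arrays, and the number of arrays limits the precision. The script was tested on simulated data. The members, the lists and the tests were chosen with earlier results of these data known. Named genes are all members, up to 3 called genes of each list with the largest change, and the 5 most like PLK4. Alternatives were another background correction, normalization, filter, probe rule, block, sample choice, adjustment, each array left out, and an ordinary t-test paired by run.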

Additional observations from a re-analysis of the deposited data

Results flagged for a closer look

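The within-run differences of SASS6 in H1975 had opposite signs at the 2 times, and neither the change at 6 h nor the difference between the times passed the test. Within runs SASS6 differed by 0.12 and 0.05 at 6 h, where 1 of the 3 runs has no value, and by -0.81, -0.47 and -0.46 at 24 h. The change at 24 h minus that at 6 h was -0.63 (SE 0.21), with limma adjusted p = 0.604, and the change at 6 h was 0.05 (SE 0.16, limma adjusted p = 0.975). Single arrays within groups of 3 were not tested for outlying values.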

How the results depend on the processing

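Recomputed under the alternatives, 240 counts of called members stayed within 1.5 times the main count and 13 moved. The main count was above 0 only for Pirfenidone in H1975 and for H1975 against A549 with PBS, both at 24 h. Most of the 240 were therefore a 0 that stayed 0, and most of the 13 were the count for Pirfenidone in H1975 at 24 h. In H1975 at 24 h the count of 2 became 1 with normexp background correction, with the slide as a block and with only the arrays compared in the fit. It became 0 with Holm adjustment and with an ordinary t-test paired by run after Benjamini-Hochberg adjustment. Leaving out single arrays gave 0 to 2. That paired t-test is not the moderated t-test that the study names for its arrays. PLK1 and NEK2 under the paired t-test had Benjamini-Hochberg adjusted p-values of 0.172 and 0.162, and at its unadjusted threshold 2 of 9 members passed. For H1975 against A549 with PBS the count at 6 h was 2 without a fold limit in place of 0, and that at 24 h was 0 with Holm adjustment and 0 to 1 when arrays were left out, in place of 1. PLK4 at 24 h minus 6 h in H1975 was -0.99, and -1.26 with normexp. For these the cause was not tested, except that Holm adjustment is stricter and smaller fits hold fewer arrays. No called value changed sign under any alternative run. By the correlations of their deviations, same-numbered arrays were paired in A549 at 6 h (0.7, 0.58 and 0.64) and in H1975 at 24 h (0.46, 0.53 and 0.72). Those of A549 at 24 h were not (0.39, 0.08 and -0.1). Among the 6 h arrays of H1975, same-numbered PBS and Pirfenidone arrays came from different runs and gave -0.48, 0.43 and -0.68. Matched by run instead, these 6 h arrays were paired, with 0.5, 0.7 and 0.82 in runs 3, 4 and 1. A block by replicate number therefore joins arrays of different runs in that comparison. With the replicate number as a block the count in H1975 at 24 h was 2 (PLK1 and NEK2, limma adjusted p = 0.0344 and 0.0261), in the other 3 drug comparisons it was 0, and no call of a member changed. With the run as a block it was 2.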
